A study of Homo sapiens with 54 samples.

Results

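Metallothioneins and the zinc exporter SLC30A1 were followed in HepG2 cells, a human hepatocellular carcinoma line that is widely used as a liver cell model. The list held 9 genes of zinc and copper handling, and 6 of them had a row among the 20056 rows of the expression table. These were MT1G (ENSG00000125144), MT2A (ENSG00000125148), MT1E (ENSG00000169715), MT1F (ENSG00000198417), MT1M (ENSG00000205364) and SLC30A1 (ENSG00000170385). The other 3 listed genes, MT1X (ENSG00000187193), MT1A (ENSG00000205362) and MT1H (ENSG00000205358), had no row and were not analysed here. The list was chosen by gene family with the differences of these compounds from their solvent already known, among them low MT1G under 2-nitrofluorene. All values of compound against solvent below are therefore a description and carry no test.

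The arrays compared 7 compounds with the solvent dimethyl sulfoxide (DMSO) at 0.5 percent, after 24 h and 48 h of exposure. The doses were 420 µM nifedipine, 114 µM methapyrilene hydrochloride, 95 µM clonidine, 45 µM piperonyl butoxide, 35 µM 2-nitrofluorene, 10 mM of the nicotine-derived nitrosamine ketone NNK and 2.1 mM tolbutamide. Each compound had 1 dose and 3 labelled biological replicates per time. Solvent cultures came from 2 exposures with 3 replicates each, so DMSO had 6 arrays at each time and the study had 54 arrays in 16 groups. Every group was the same carcinoma line. Its identity was not checked by markers, because the row IDs could not be paired with symbols.

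Metallothioneins are small, cysteine-rich proteins of the cytosol and nucleus that bind zinc, copper and cadmium and buffer free zinc. Their genes are switched on by MTF-1, a transcription factor that senses zinc and binds metal response elements in their promoters, and glucocorticoids and oxidants also induce several of them. Liver cells are among the strongest expressers. MT2A is usually the most abundant human form, and the MT1 genes are close copies of each other. SLC30A1 (ZnT1) is the zinc exporter of the plasma membrane, moves zinc out of the cell, and is another known MTF-1 target. In the RefSeq annotation of GRCh38.p14 a cluster of metallothionein genes lies on chromosome 16. Along the plus strand's coordinates the order is MT2A, MT1E, MT1M, MT1A, MT1B, MT1F, MT1G, MT1H and MT1X, with pseudogenes between them. The search ran from MT2A to MT1X only, so family members beyond them are not covered. SLC30A1 lies on chromosome 1.

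The promoters of the 2 measured members found in the RefSeq promoter table are shown because MTF-1 sites would lie there. Each window runs from 250 bases before to 50 bases after the gene's start on GRCh38.p14, and capitals mark matches to TGCACNC or TGCGCNC, the core of the metal response element, on either strand. MT2A lies at chr16:56608334-56608633 on the plus strand and SLC30A1 at chr1:211579112-211579411 on the minus strand.
MT2A: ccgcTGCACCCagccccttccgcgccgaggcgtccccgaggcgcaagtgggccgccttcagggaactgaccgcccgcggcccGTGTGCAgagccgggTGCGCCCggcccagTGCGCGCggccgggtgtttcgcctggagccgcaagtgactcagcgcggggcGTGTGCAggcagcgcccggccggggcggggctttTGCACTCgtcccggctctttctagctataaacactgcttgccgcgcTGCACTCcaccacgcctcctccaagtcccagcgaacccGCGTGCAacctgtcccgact
SLC30A1: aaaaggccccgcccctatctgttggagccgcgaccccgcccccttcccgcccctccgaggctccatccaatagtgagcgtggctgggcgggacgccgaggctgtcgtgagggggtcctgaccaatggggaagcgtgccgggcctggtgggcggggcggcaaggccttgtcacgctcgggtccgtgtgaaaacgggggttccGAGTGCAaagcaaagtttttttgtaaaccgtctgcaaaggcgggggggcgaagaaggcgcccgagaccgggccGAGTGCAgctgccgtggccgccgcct
The MT2A window held 8 matches, none overlapping, with first bases from position -246 to position 31 relative to the start. At least as many matches were found in 7 of 35116 promoters of this length, or 0.0199 percent. The SLC30A1 window held 2 matches, with first bases at -49 and 25, and 3020 promoters, or 8.60 percent, held at least as many. At least 1 match was found in 29.6 percent of all promoters, so a match in itself is common.

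Values are log2 expression values that the authors made with RMA, which equalizes the arrays, so that a change in total RNA per cell leaves no trace in them. In these bulk cultures, fewer expressing cells and less RNA per cell cannot be told apart. Fewer copies of one MT1 transcript and cross-hybridization of another cannot be told apart either, since MT1 genes are near-identical and the sources used here give no probe sets. The 5 metallothionein rows may therefore not be independent measurements. A row was called in a comparison when its adjusted p was under 0.05 in a limma fit over all 20056 rows. For the members that word is a label only.

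Of the 54 arrays, 4 had lower slopes on the mean of all arrays than the rest, and they are called low-spread here. Their slopes on the mean of all arrays were 0.678 and 0.859 for piperonyl butoxide (replicate 1 at 48 h and replicate 2 at 24 h), 0.798 for NNK (replicate 2 at 24 h) and 0.911 for DMSO (exposure 2, replicate 2, at 24 h), beside 0.965 to 1.04 for the other 50. Values are given with all arrays and, as a second setting, without these 4 low-spread arrays. A slope can also be low where values follow the mean less closely, and the spread itself was not measured. The array with the slope of 0.678 held the highest value of all arrays, 14.8. The part of the low slopes in any result was not tested.

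Piperonyl butoxide, a cytochrome P450 inhibitor used as an insecticide synergist, gave the highest metallothionein levels at 24 h in 4 of 5 genes, together with low SLC30A1 at 48 h. Of the 6 rows, 4 were called at 24 h and 5 at 48 h, in comparisons where 26.0 percent and 58.7 percent of all rows were called. Once the low-spread arrays were left out, 5 and 6 members were called, against 31.6 percent and 38.5 percent of all rows. The median log2 change of the 5 metallothioneins was 1.10 at 24 h and 0.61 at 48 h, beside 0.10 and 0.21 over all rows. Leaving out the low-spread arrays gave a 48 h median of 1.01, beside 0.066 over all rows, and leaving out piperonyl butoxide 48 h replicate 2 gave 0.37. The shift of all rows at 48 h depended on the scaling, with a median of 0.21 as deposited, 0.08 after each array was centred on its median and 0.01 after cyclic loess. Under those scalings the 48 h log2 change was 0.98, 0.85 and 1.54 for MT2A, 1.34, 1.21 and 1.02 for MT1M, and -1.97, -2.09 and -1.56 for SLC30A1, called each time. MT1G at 0.58, 0.45 and 1.06 and MT1F at 0.61, 0.49 and 1.05 kept their sign and were not called after centring.

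The genotoxic nitroarene 2-nitrofluorene and the antihistamine methapyrilene hydrochloride gave the lowest levels of MT1G and MT1F. For 2-nitrofluorene, 2 of 6 rows were called at each time, in comparisons with 0.324 percent and 0.369 percent of all rows called. These were 3 and 3 without the low-spread arrays, against 0.653 percent and 1.11 percent. The metallothionein median was -0.49 at 24 h and -0.80 at 48 h, beside -0.02 and -0.01 over all rows. For methapyrilene hydrochloride, 1 row was called at 24 h and 3 at 48 h, against 1.53 percent and 5.00 percent of all rows. In the second setting 2 and 5 were called, against 3.85 percent and 12.4 percent. Its metallothionein medians were -0.39 and -0.96, beside -0.03 and -0.04 over all rows.

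Nifedipine, a calcium channel blocker, moved the members in both directions. It had 2 rows called at each time, with 8.18 percent and 5.79 percent of all rows called. With the low-spread arrays left out, 3 were called at each time, against 14.4 percent and 13.9 percent. The metallothionein medians were 0.65 at 24 h and 0.22 at 48 h. Tolbutamide, a sulfonylurea antidiabetic, had 0 rows called at 24 h and 1 at 48 h, against 2.02 percent and 2.20 percent of all rows. The second setting gave 1 and 2 called rows, against 5.33 percent and 5.82 percent. At an unadjusted p under 0.05 in limma, tolbutamide had 1 member row at 24 h and 2 at 48 h, among 1724 and 1747 of all 20056 rows.

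Clonidine, an alpha-2 adrenergic agonist, had 0 of 6 rows called at both times in limma, against 0.00499 percent and 0.384 percent of all rows. At an unadjusted p under 0.05 there were 1 member row at 24 h and 4 at 48 h, among 438 and 1189 of all rows. In the second setting 0 rows were called at 24 h and 2 at 48 h, against 0.0150 percent and 1.72 percent. NNK, a tobacco nitrosamine, also had 0 of 6 rows called at both times in limma, with 0 percent of all rows called at 24 h and 0 percent at 48 h. In limma, 2 member rows at 24 h and 0 at 48 h had an unadjusted p under 0.05, among 1431 and 293 of all rows. Without the low-spread arrays NNK again had 0 rows called at both times, 0 percent of all rows, with 0 and 2 member rows at an unadjusted p under 0.05, among 568 and 1140 of all rows.

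**Figure D1:**
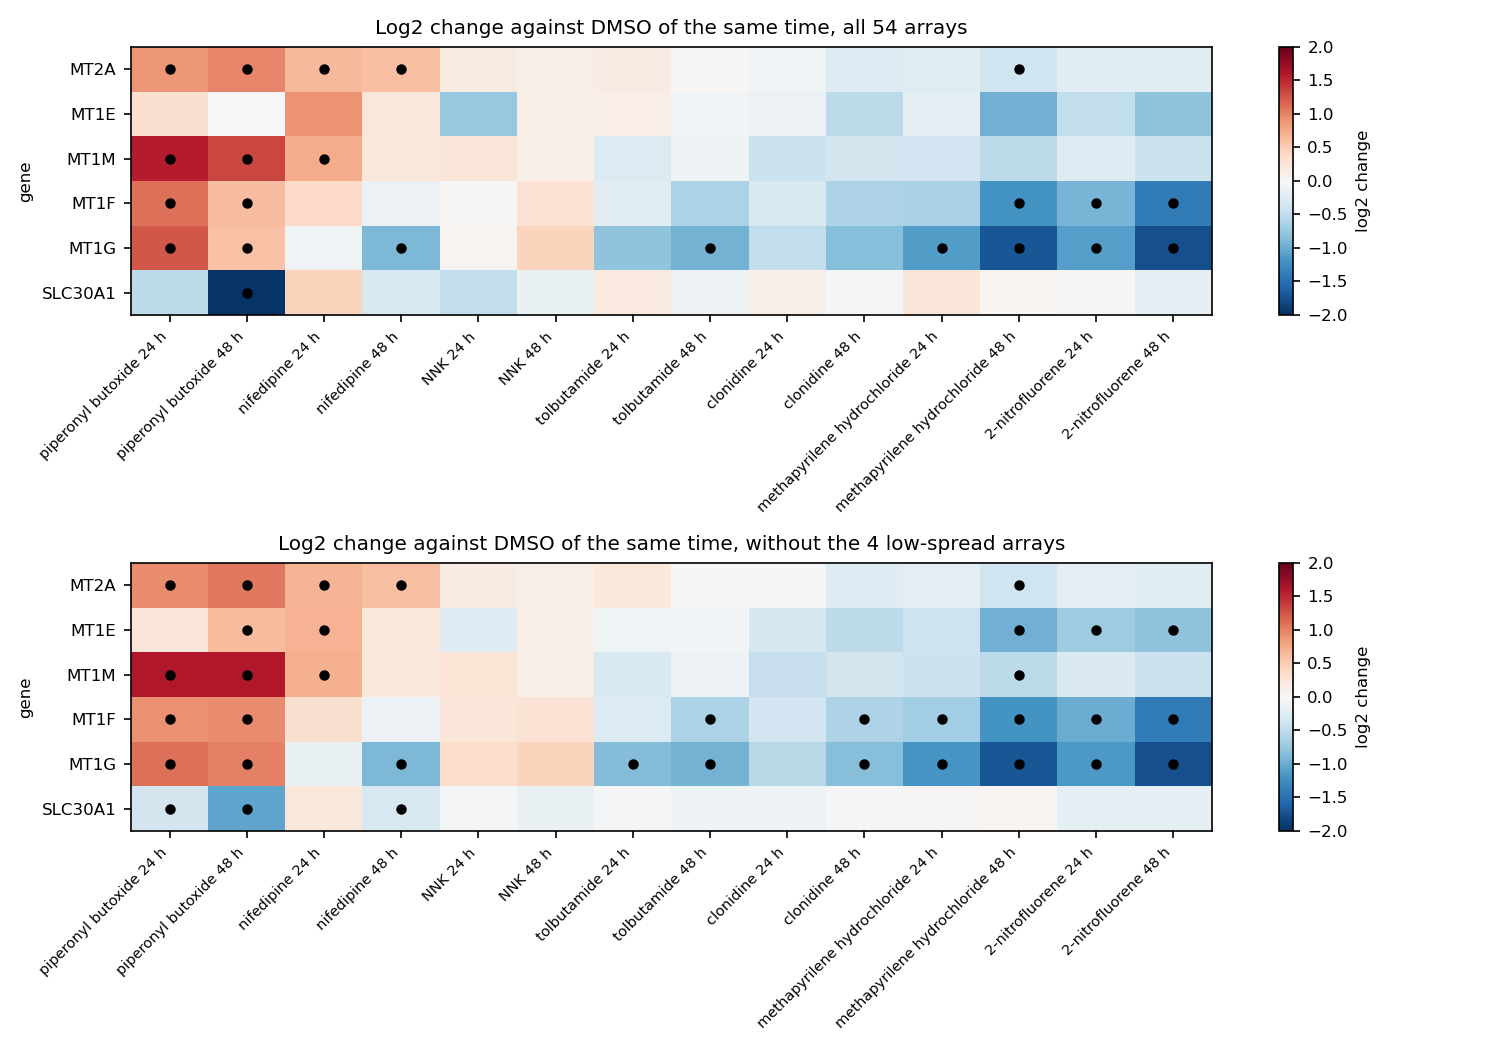
Heat maps of the fitted log2 change against DMSO of the same time (colour) for 6 genes (rows) and 7 compounds at 24 h and 48 h (columns), from all 54 arrays (top) and without the 4 low-spread arrays (bottom), with a dot where a change was called. MT1M under piperonyl butoxide at 24 h is at 1.57 in the upper map, while MT1G under 2-nitrofluorene and methapyrilene hydrochloride at 48 h is at -1.76 and -1.72.

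MT2A, the main human metallothionein, was bright on every array, with an SD over the DMSO arrays of 0.24 at 24 h and 0.18 at 48 h. In DMSO the lowest, median and highest values were 13.05, 13.43 and 13.67 at 24 h, while those at 48 h were 13.13, 13.31 and 13.59. Under piperonyl butoxide MT2A read 14.33, 14.24 and 14.25 at 24 h and 14.35, 14.27 and 14.26 at 48 h. Every one of these 6 arrays lay above every DMSO array of its time, the low-spread ones included. MT2A rose by 0.88 (SE 0.08), or 1.84-fold, at 24 h and by 0.98 (SE 0.08), or 1.97-fold, at 48 h. Array maxima lay between 14.4 and 14.8, so these MT2A values are close to the top of the measured range.

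Nifedipine was the other compound with high MT2A. It read 14.07, 14.07 and 13.98 at 24 h and 14.02, 13.94 and 13.79 at 48 h. These 6 arrays lay above all DMSO arrays and below all piperonyl butoxide arrays of the same time. The fitted rises were 0.65 (SE 0.08), or 1.56-fold, at 24 h and 0.60 (SE 0.08), or 1.52-fold, at 48 h.

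MT2A under methapyrilene hydrochloride read 13.34, 13.09 and 13.04 at 24 h and 13.16, 12.96 and 12.63 at 48 h. All 48 h values lay below the matched DMSO mean, although the group still overlapped DMSO. The change was -0.24 (SE 0.08), not called, at 24 h, and MT2A fell by 0.40 (SE 0.08) at 48 h. This call was lost without the replicate block, with DMSO exposure 2 alone, after cyclic loess and without replicate 3, and held in 14 of 18 alternatives. In the other 4 compounds no MT2A change was called, and they ranged from -0.26 (clonidine, 48 h) to 0.18 (NNK, 24 h). In order of level, piperonyl butoxide and nifedipine stood apart at both times, while the neighbours among the other groups overlapped.

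MT1G had the largest fitted falls among the metallothioneins. Its DMSO arrays ran from 10.28 through a median of 10.70 to 11.52 at 24 h, and from 10.13 through 10.92 to 11.37 at 48 h. Part of that spread followed the replicate number, with DMSO means of 11.50, 10.30 and 10.70 for numbers 1, 2 and 3 at 24 h. A label of each compound array names the DMSO arrays of its own number and time as its matching controls, and the fit carries that number as a block.

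Under 2-nitrofluorene MT1G read 10.21, 9.60 and 9.39 at 24 h and 9.10, 9.18 and 9.17 at 48 h. All 6 arrays lay below every DMSO array of their time. MT1G fell by 1.10 (SE 0.25), or 2.14-fold, at 24 h and fell by 1.76 (SE 0.25), or 3.38-fold, at 48 h. The 24 h call was kept in 6 of 18 alternatives and lost without the block or any 1 of the compound's arrays, while the 48 h call was kept in 18 of 18.

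Methapyrilene hydrochloride gave nearly the same MT1G values. It read 10.20, 9.37 and 9.57 at 24 h and 9.32, 9.18 and 9.08 at 48 h, again below every DMSO array. MT1G fell by 1.12 (SE 0.25), or 2.18-fold, at 24 h and fell by 1.72 (SE 0.25), or 3.28-fold, at 48 h. The 24 h call was kept in 12 of 18 alternatives, and lost without the block or any 1 of the compound's arrays, and the 48 h call in 18 of 18. The ranges of both compounds overlapped at each time.

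Piperonyl butoxide moved MT1G the other way, with 12.23, 11.95 and 12.03 at 24 h and 10.75, 11.86 and 11.86 at 48 h. All 24 h arrays lay above all DMSO arrays, and so did the latter 2 at 48 h. The 10.75 was the array with a slope of 0.678. MT1G rose by 1.24 (SE 0.25) at 24 h and by 0.58 (SE 0.25) at 48 h, where leaving out the low-spread arrays gave 1.01 (SE 0.24), or 2.02-fold. Leaving out replicate 2 instead gave 0.30, and the 48 h call was kept in 8 of 19 alternatives.

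Nifedipine, tolbutamide and clonidine had lower MT1G at 48 h. Nifedipine read 10.71, 10.74 and 10.82 at 24 h and 9.74, 9.73 and 10.58 at 48 h, with changes of -0.08 (SE 0.25) and -0.89 (SE 0.25), the latter called. Tolbutamide read 10.85, 9.78 and 9.44 at 24 h and 10.18, 10.00 and 9.69 at 48 h, and MT1G fell by 0.95 (SE 0.25) at 48 h. The tolbutamide change at 24 h was -0.81 (SE 0.25), called once the low-spread arrays were left out, at -0.86. Clonidine read 11.17, 10.01 and 9.83 and then 10.47, 9.78 and 9.92, with uncalled changes of -0.50 and -0.85 (SE 0.25), the latter called without the low-spread arrays. The 48 h calls were kept in 10 of 18 alternatives for nifedipine and 8 of 18 for tolbutamide, and both were lost without the block. In each of these 3 compounds at 48 h all 3 replicates lay below their matched DMSO mean, although the groups overlapped. NNK read 11.88, 9.89 and 10.88 at 24 h and 11.58, 11.28 and 11.22 at 48 h, with uncalled changes of 0.05 and 0.45 (SE 0.25).

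**Figure D2:**
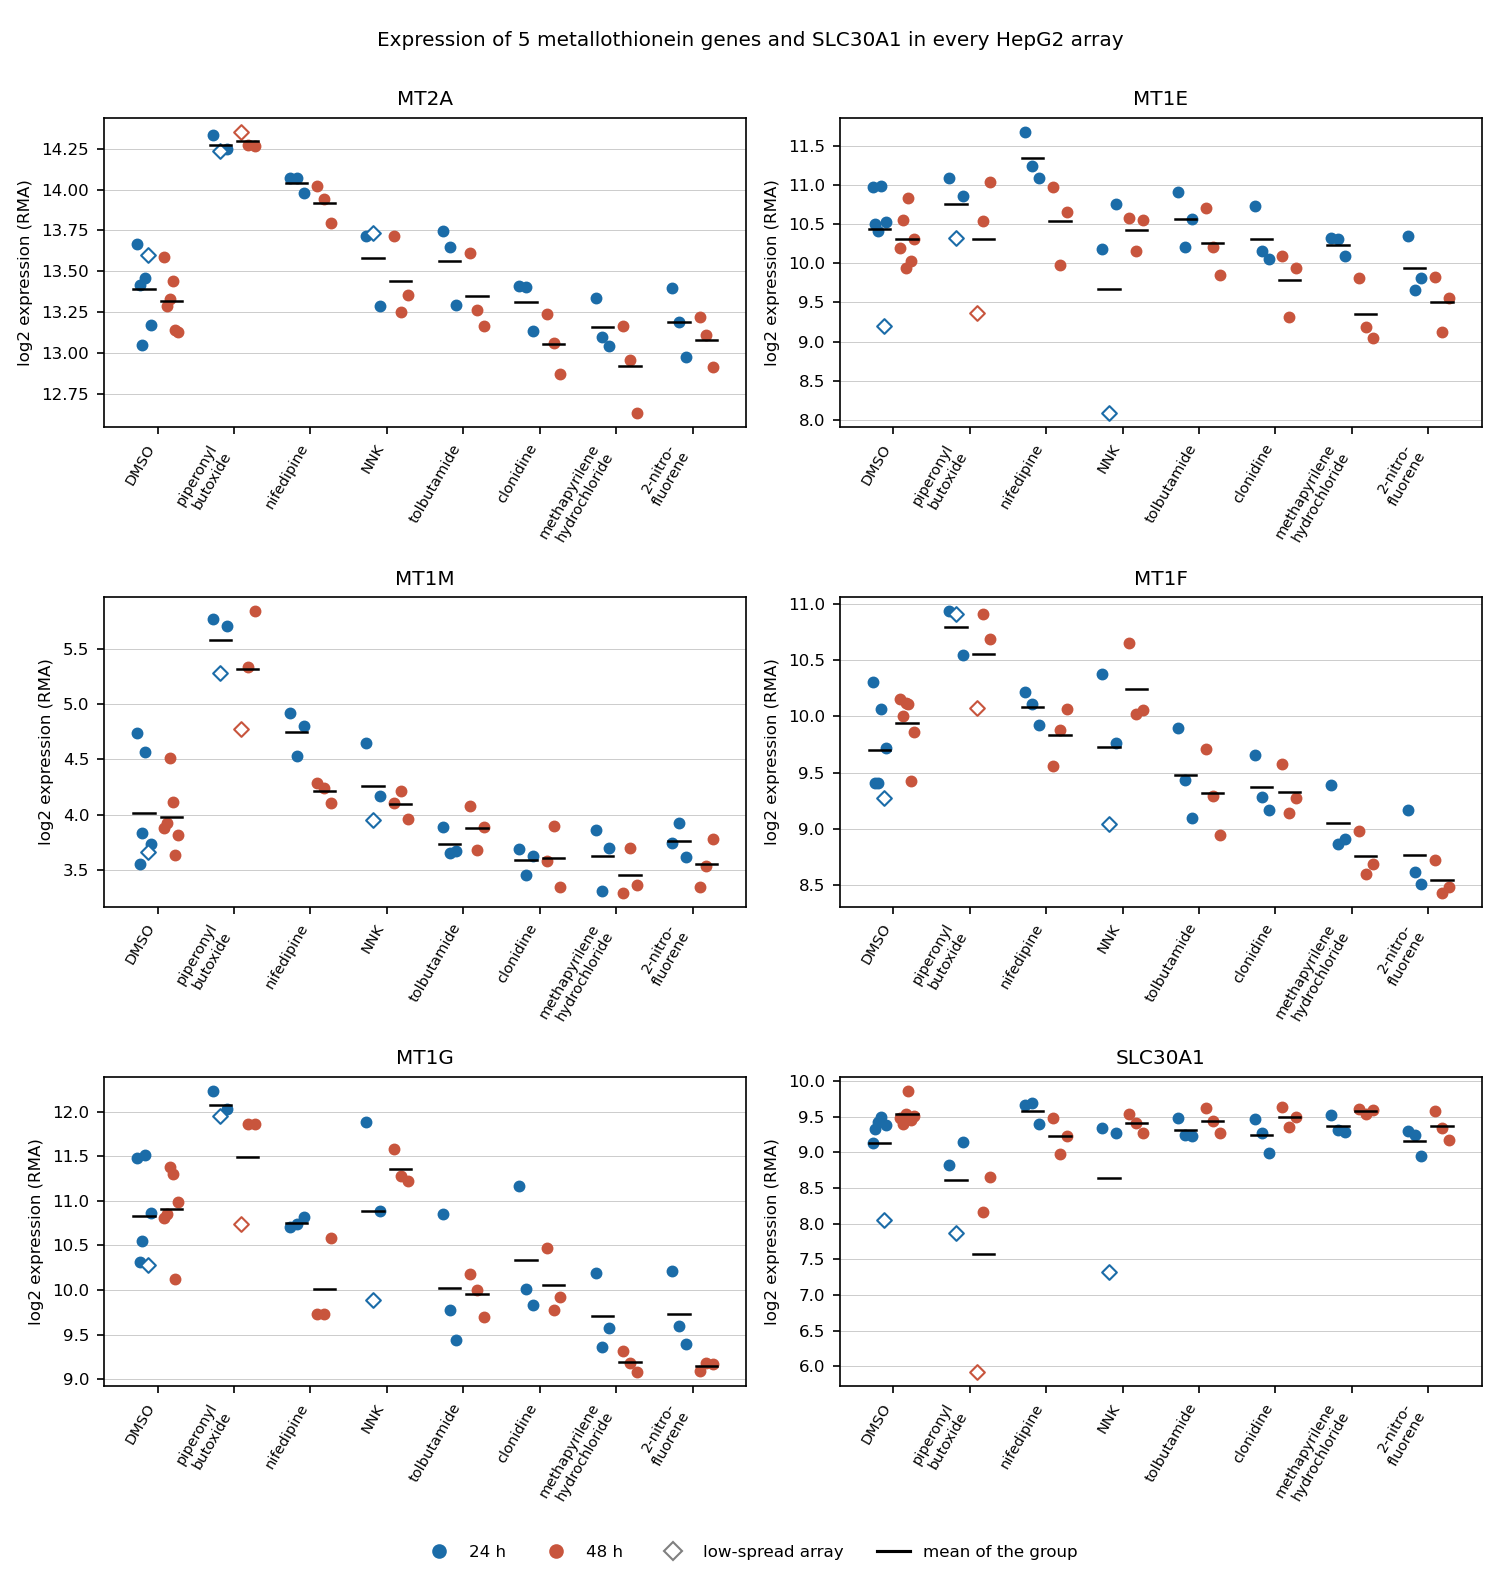
Log2 expression of each of the 6 genes (panels) on every array at 24 h and 48 h, with 6 DMSO and 3 compound arrays per time; blue is 24 h, red is 48 h, open diamonds are the 4 low-spread arrays and bars are group means. MT2A sits highest under piperonyl butoxide (14.24 to 14.35) and nifedipine (13.79 to 14.07), and SLC30A1 drops to 5.92 on 1 low-spread piperonyl butoxide array.

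MT1F followed MT1G closely. Its DMSO arrays ran from 9.28 through 9.57 to 10.31 at 24 h and from 9.42 through 10.06 to 10.15 at 48 h. Under 2-nitrofluorene it read 9.17, 8.62 and 8.51 at 24 h and 8.72, 8.43 and 8.49 at 48 h, below all DMSO arrays. MT1F fell by 0.93 (SE 0.18), or 1.91-fold, at 24 h and fell by 1.40 (SE 0.18), or 2.63-fold, at 48 h. The 24 h call was kept in 10 of 18 alternatives, not without the block or any 1 of the compound's arrays.

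Methapyrilene hydrochloride brought MT1F to 9.39, 8.86 and 8.91 at 24 h and to 8.98, 8.60 and 8.69 at 48 h. Only the 48 h arrays were clear of the DMSO range, where MT1F fell by 1.19 (SE 0.18). The 24 h change of -0.64 was called at -0.70 (SE 0.14) without the low-spread arrays. Under piperonyl butoxide MT1F read 10.93, 10.91 and 10.54 at 24 h and 10.07, 10.91 and 10.69 at 48 h. MT1F rose by 1.10 (SE 0.18) at 24 h, above all DMSO arrays, and by 0.61 (SE 0.18) at 48 h, where the low-spread array at 10.07 overlapped DMSO. Without the low-spread arrays the values were 0.92 (SE 0.16) and 0.95 (SE 0.16), and without replicate 2 the 48 h value was 0.37 and not called. Clonidine and tolbutamide at 48 h had changes of -0.61 and -0.63 (SE 0.18), not called with all arrays and called without the low-spread ones, and the other uncalled changes ranged from -0.33 to 0.39.

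MT1M was dim, with values near the bottom of the table, whose range was 2.45 to 14.8. DMSO arrays ran from 3.55 through 3.78 to 4.74 at 24 h and from 3.64 through 3.90 to 4.51 at 48 h. Under piperonyl butoxide MT1M read 5.77, 5.28 and 5.71 at 24 h and 4.77, 5.34 and 5.84 at 48 h, above every DMSO array. The rises were 1.57 (SE 0.18), or 2.97-fold, and 1.34 (SE 0.18), or 2.53-fold. After cyclic loess they were 1.43 and 1.02.

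Nifedipine brought MT1M to 4.92, 4.53 and 4.80 at 24 h, overlapping DMSO, a rise of 0.74 (SE 0.18). At 48 h its arrays read 4.29, 4.24 and 4.11, with an uncalled change of 0.23 (SE 0.18). The change under methapyrilene hydrochloride at 48 h was -0.53 (SE 0.18), from arrays at 3.29, 3.69 and 3.36, and was not called with all arrays but was without the low-spread ones. No other MT1M change was called in either setting.

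MT1E had no call with all 54 arrays. Its DMSO arrays ran from 9.21 through 10.51 to 10.98 at 24 h and from 9.94 through 10.25 to 10.83 at 48 h, and the 9.21 was the low-spread DMSO array. Nifedipine gave 11.68, 11.25 and 11.09 at 24 h, all above DMSO, with a change of 0.91 (SE 0.32). At 48 h, 2-nitrofluorene gave 9.82, 9.13 and 9.56 and methapyrilene hydrochloride gave 9.81, 9.19 and 9.05, all below DMSO, with changes of -0.80 and -0.96 (SE 0.32). NNK at 24 h read 10.18, 8.09 and 10.75, and the 8.09 was its low-spread array.

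Without the low-spread arrays the standard error of MT1E fell from 0.32 to 0.18 at 24 h for compounds with 3 arrays left, and 5 changes were called. These were 2-nitrofluorene at -0.71 at 24 h and -0.80 at 48 h, methapyrilene hydrochloride at -0.96 at 48 h, nifedipine at 0.69 at 24 h and piperonyl butoxide at 0.64 at 48 h. Under piperonyl butoxide MT1E read 11.08, 10.32 and 10.85 at 24 h and 9.36, 10.54 and 11.04 at 48 h, where the 9.36 was the low-spread array. With all arrays the 48 h change was 0.00 (SE 0.32). With only the compound's own low-spread array left out it was 0.64 (SE 0.32), not called. The kept piperonyl butoxide arrays at 48 h overlapped DMSO. MT1E was the metallothionein that moved least under this compound at 24 h, at 0.32 (SE 0.32).

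SLC30A1 moved under piperonyl butoxide in the direction opposite to the metallothioneins. DMSO arrays ran from 8.05 through 9.35 to 9.49 at 24 h and from 9.40 through 9.50 to 9.86 at 48 h. Piperonyl butoxide gave 8.82, 7.86 and 9.15 at 24 h and 5.92, 8.16 and 8.65 at 48 h. All of its arrays at 48 h lay below all DMSO arrays. SLC30A1 fell by 1.97 (SE 0.34), or 3.91-fold, at 48 h with all arrays. Without its own low-spread array, or without all 4, it fell by 1.06, or 2.09-fold (SE 0.12 without all 4). At 24 h the change was -0.52 (SE 0.34), not called, and -0.36 (SE 0.13), called, without all 4 of those arrays. With only its own low-spread array left out, the 24 h change was -0.28 (SE 0.40), not called. At 48 h the kept piperonyl butoxide arrays, replicates 2 and 3, had slopes of 0.9656 and 0.9662. The DMSO arrays at 48 h had slopes from 0.998 to 1.03, so the fall of 1.06 still compares arrays of unlike slope. The part of the slopes in that fall was not tested.

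The 4 lowest SLC30A1 readings of all 54 arrays were on the 4 low-spread arrays. The values 5.92, 7.32, 7.86 and 8.05 came from piperonyl butoxide at 48 h, NNK at 24 h, piperonyl butoxide at 24 h and DMSO at 24 h, in the order of their slopes, lowest first. That DMSO array is also in the matched mean of every compound's replicate 2 at 24 h. Under nifedipine SLC30A1 read 9.66, 9.70 and 9.40 at 24 h and 9.48, 8.98 and 9.23 at 48 h. Its 24 h change was 0.45 (SE 0.34) with all arrays and 0.23 (SE 0.11) without the low-spread arrays, called in neither setting. Its 48 h change was -0.31 with both settings, with an SE of 0.34 with all arrays and 0.11, and called, without the low-spread arrays. The nifedipine array at 8.98 had a slope of 0.965, the lowest of the 50 kept arrays.

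In the other 5 compounds no SLC30A1 change was called in either setting. With all arrays these ranged from -0.49 (NNK, 24 h) to 0.24 (methapyrilene hydrochloride, 24 h), and without the low-spread arrays from -0.19 to 0.04. Under 2-nitrofluorene SLC30A1 read 9.30, 9.24 and 8.94 at 24 h and 9.58, 9.34 and 9.18 at 48 h, and under methapyrilene hydrochloride 9.52, 9.32 and 9.29 and then 9.61, 9.54 and 9.60. These are the compounds with the lowest MT1G, and their SLC30A1 arrays overlapped DMSO.

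**Figure D3:**
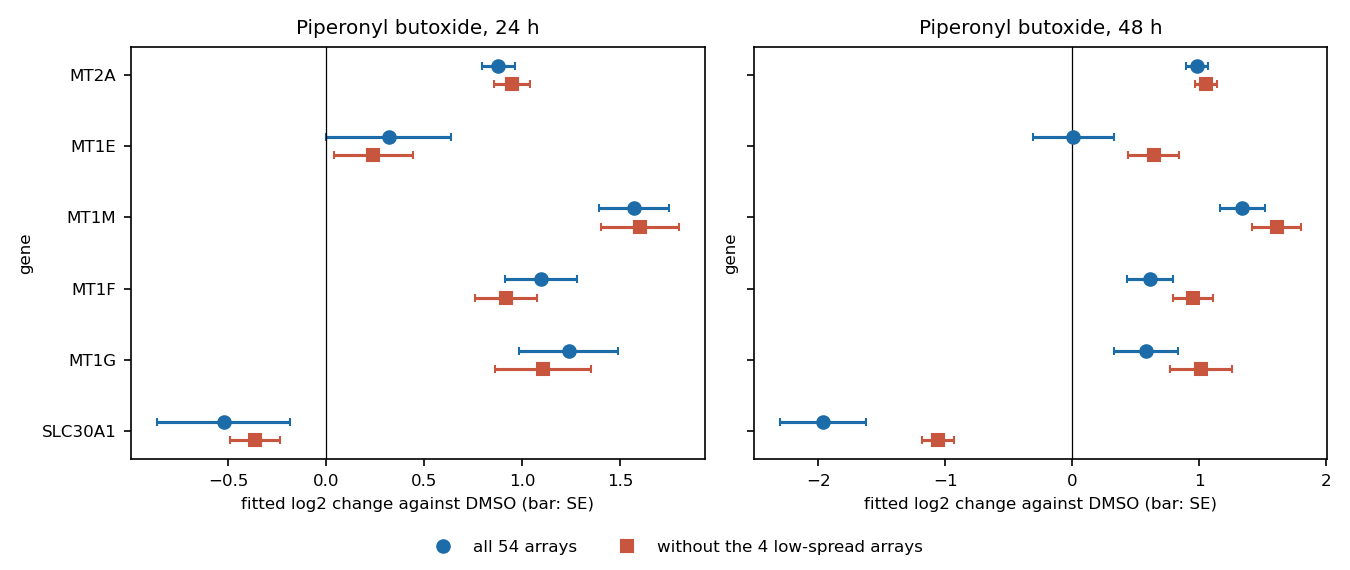
Fitted log2 change against DMSO under piperonyl butoxide (x axis; bars are standard errors) for each gene at 24 h and 48 h, from all 54 arrays (circles) and without the 4 low-spread arrays (squares). SLC30A1 at 48 h moves from -1.97 to -1.06 and MT1E from 0.00 to 0.64, while MT2A stays near 1.

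The metallothioneins did not move as 1 block. Nifedipine at 48 h raised MT2A and lowered MT1G on the same arrays. Against the matched DMSO arrays, MT2A was higher by 0.51, 0.73 and 0.57 and MT1G changed by -1.32, -0.76 and -0.60 in replicates 1, 2 and 3. The MT2A change exceeded the MT1G change by 1.83, 1.48 and 1.17. Under piperonyl butoxide at 48 h, MT2A minus SLC30A1 was 4.59, 2.33 and 1.92, the first on the low-spread array.

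**Figure D4:**
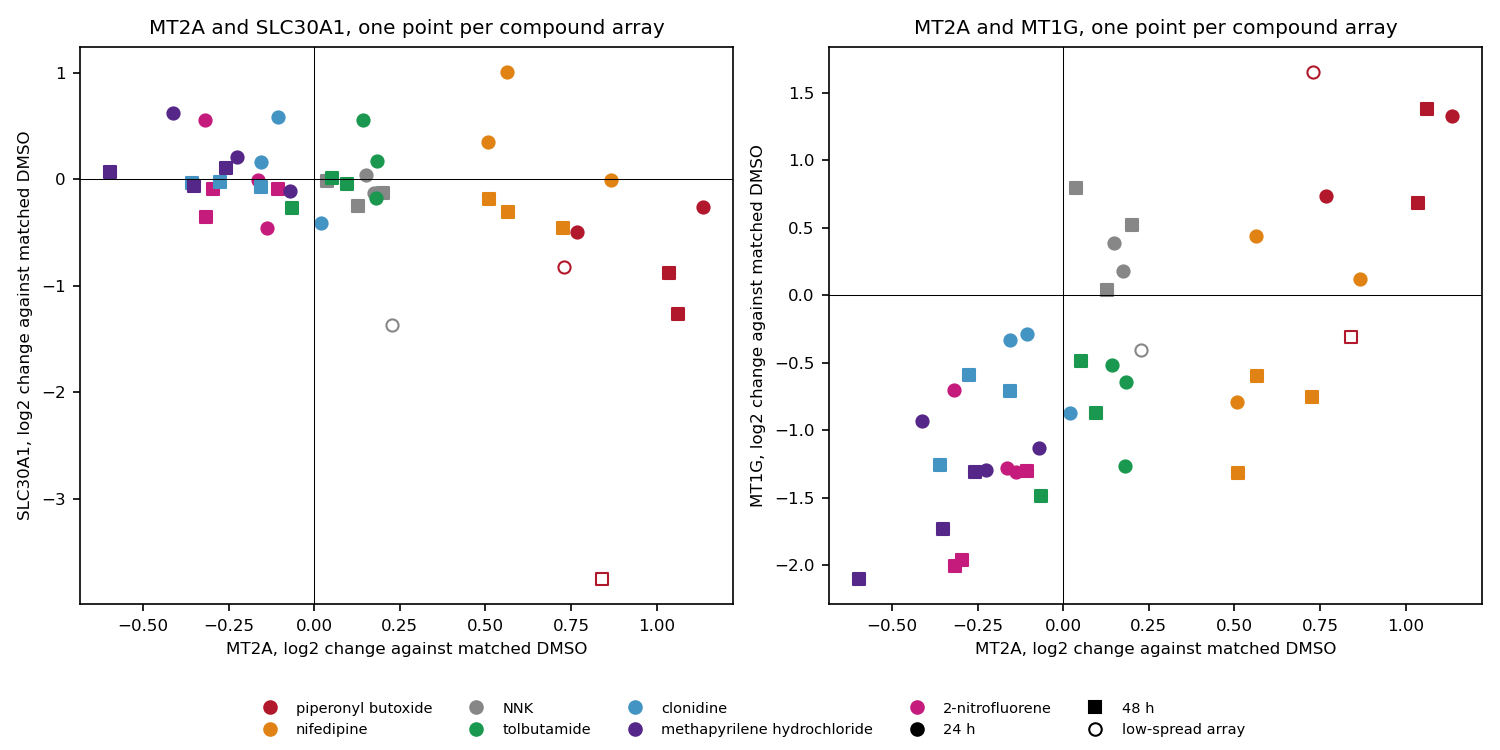
Log2 change of each compound array against the mean of its 2 matched DMSO arrays, with MT2A on the x axis and SLC30A1 (left) or MT1G (right) on the y axis; circles are 24 h, squares 48 h, colours are compounds and open symbols are low-spread arrays. The 3 nifedipine 48 h arrays lie at the lower right of the MT1G panel (MT2A higher by 0.51 to 0.73, MT1G at -1.32 to -0.60), and the lowest SLC30A1 point, at -3.75, is a low-spread piperonyl butoxide array.

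Across the 16 group means MT1F was most like the mean of the other metallothioneins, with a Pearson correlation of 0.96, then MT2A (0.89), MT1M (0.88), MT1G (0.86) and MT1E (0.65, or 0.81 without the low-spread arrays). SLC30A1 had -0.56. The most alike pairs were MT1G with MT1F, at 0.95, and MT2A with MT1M, at 0.93. These correlations are a description over 16 groups that share the normalization, the replicate structure and possibly probes. Rows outside the gene list with an SD of at least 0.5 over the group means numbered 1473. Among them ENSG00000102891 was most like the mean of the 5 metallothioneins (0.95), followed by ENSG00000148677 (0.86). The same pair led without the low-spread arrays. Neither was paired with a symbol here, so nothing is said of what these genes are. Whether they share probes with the 5 rows was not tested. ENSG00000102891 had a mean of 9.25 in DMSO at 24 h, 10.8 under piperonyl butoxide and 8.58 under 2-nitrofluorene.

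Time itself was tested in DMSO, a contrast that was not named in choosing the genes. That choice was still made with earlier results of these data known. Averaging both exposures of a number left 3 values per time, and limma called none of the 6 members among 20056 rows, of which 0.0249 percent were called. SLC30A1 was 0.41 higher at 48 h (SE 0.19, limma adjusted p = 1.00) and MT1E differed by -0.12 (SE 0.27), with the low-spread DMSO array on the 24 h side. Without that array the differences were 0.20 (SE 0.09) and -0.34 (SE 0.17), and none of the members was called. At an unadjusted p under 0.05, limma gave none of the members and 1030 of all rows. The 2 DMSO exposures differed by at most 0.39 in any member, and limma called none of the members or of all rows at either time, with 271 and 1037 rows at an unadjusted p under 0.05. Without the low-spread arrays these were 619 and 2754 rows, with 1 row called at 24 h, no member.

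The change at 48 h minus that at 24 h was not called for any member in any compound with all arrays. For MT1G this difference was -0.66 (SE 0.36) under 2-nitrofluorene, -0.59 (SE 0.36) under methapyrilene hydrochloride and -0.82 (SE 0.36) under nifedipine. For SLC30A1 under piperonyl butoxide it was -1.44 (SE 0.48), not called, and -0.70 (SE 0.18), called, without the low-spread arrays.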

How the data were processed

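Log2 expression values were analysed as deposited. They came from HepG2 cells grown in 6-well plates, per the labels' protocols, with total RNA labelled as biotinylated cRNA, and the submitters' processing notes name RMA as the authors' method for the log2 values. Neither the RMA version nor how probe sets were defined is given in the sources used here. The table held 20056 rows and 54 arrays with 0 missing values and array medians from 5.70 to 6.21.

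Samples were grouped by compound and time. All arrays entered 1 fit in limma 3.58.1 (R 4.3.3; lmFit, eBayes, two-sided) with 16 groups and the replicate number within a time as a block of 6 levels, which left 34 residual degrees of freedom. The block follows the labels, which list for each compound array 2 DMSO arrays as its matching controls. Deviations from group means of same-numbered arrays had a mean correlation of 0.242 at 24 h and 0.205 at 48 h, above 0.1 in 76 and 73 of 105 pairs, so not every pair bears it out. Adjusted p-values are Benjamini-Hochberg over all rows of a contrast. Labels call the replicates biological without saying what was repeated, so the spread may be partly technical.

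The members, gene lists and tests were chosen with earlier results of these data known. Named genes were all members with a row, plus non-member rows chosen by likeness, of which 2 of the planned 4 are named because they have no symbol here. Related gene lists and cell type markers could not be matched by symbol and were not run. The fit was tested on simulated data. Alternatives were no block, other DMSO arrays, fewer arrays in the fit, other scalings, a filter on low rows, another variance prior, single arrays left out, and the arrays with a slope under 0.95 left out, together or, chosen after seeing the data, 1 group at a time. Scan dates and batches were not among the labels. Promoters are RefSeq's.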

Additional observations from a re-analysis of the deposited data

Results flagged for a closer look

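In the 12 DMSO groups examined, 1 per member and time with 6 arrays each, 3 values, on 2 arrays, stood apart from the other 5 of their group by Dixon's criterion, which chance gives in about 1 in 20 groups. MT1E was low, at 9.21, and SLC30A1 was low, at 8.05, on the same array, DMSO 24 h exposure 2 replicate 2, which is 1 of the 4 low-spread arrays, with a slope of 0.911. SLC30A1 was high, at 9.86, in DMSO 48 h exposure 2 replicate 1.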

How the results depend on the processing

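Of the 84 member changes against DMSO, 22 were called; these 22 kept their direction in every alternative run, and 14 were called in every one. Without the replicate block the number of called members went from 2 to 0 for 2-nitrofluorene at 24 h, from 1 to 0 for methapyrilene hydrochloride at 24 h, from 2 to 1 for nifedipine at 48 h and from 1 to 0 for tolbutamide at 48 h, while calls over all rows went from 65 to 35, 307 to 164, 1162 to 771 and 441 to 255. It also went from 3 to 2 for methapyrilene hydrochloride and from 5 to 4 for piperonyl butoxide at 48 h (1002 to 632 and 11780 to 10999 over all rows). The first 4 numbers were 0, 0, 1 and 2 with DMSO exposure 1 alone, and 0, 0, 1 and 0 with exposure 2 alone. Centring each array gave 0 for 2-nitrofluorene at 24 h, 1 for nifedipine at 48 h and 0 for tolbutamide at 48 h. Fitting only a compound with its DMSO arrays gave 0 for 2-nitrofluorene at 24 h and 0 for tolbutamide at 48 h. For piperonyl butoxide at 48 h the number was 3 rather than 5 with DMSO exposure 1 alone, with centred arrays and with its own and the DMSO arrays only. Cyclic loess gave 1 for clonidine at 48 h, 2 for methapyrilene hydrochloride at 24 h, 1 for tolbutamide at 24 h and 2 for tolbutamide at 48 h, while leaving out the low-spread arrays gave 2, 2, 1 and 2 for these and 5 for methapyrilene hydrochloride at 48 h. With the 0.25 share of rows of lowest mean left out, which drops MT1M, nifedipine at 24 h had 1 and tolbutamide at 48 h had 2. Leaving out single arrays gave 0 to 2 called members for 2-nitrofluorene at 24 h, methapyrilene hydrochloride at 24 h and tolbutamide at 48 h, 1 to 2 for nifedipine at 48 h, 2 to 4 for methapyrilene hydrochloride at 48 h and 3 to 5 for piperonyl butoxide at 48 h. The metallothionein median of nifedipine at 48 h (0.22) was 0.11 with DMSO exposure 1 alone, 0.057 with the dim rows left out, and 0.11 to 0.28 without single arrays; that of tolbutamide at 48 h (-0.10) was -0.34 with the dim rows left out. The uncalled DMSO differences between times changed sign, with MT1G at -0.081 and MT1E at 0.15 in exposure 2 alone and MT2A at 0.025 and MT1M at 0.065 in exposure 1 alone, and ranges without single replicates of -0.13 to 0.33, -0.41 to 0.047, -0.17 to 0.034 and -0.24 to 0.28. The cause of these shifts was not tested, apart from the loss of MT1M. Precision is limited by 3 arrays per compound and time, by MT1M lying near the bottom and MT2A near the top of the measured range, and by MT1 probes that may share targets.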
